A study of Mus musculus with 16 samples.

Results

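The genes described are the enzymes that hydroxylate proline and lysine in collagen, together with a transmembrane relative. The members were taken by symbol from a fixed list: P4ha1, P4ha2, P4hb, Plod1, Plod2, Plod3, P3h1 and P4htm. All 8 were found among the 49585 gene identifiers of the count tables. RNA was sequenced from flow-sorted cells, described as neutrophils, from the bones of C57BL/6 mice aged 8 to 12 weeks. In one line, Vav:cre-PHD2f/f (group P2KO), the oxygen sensor PHD2, encoded by Egln1, is labelled as deficient. In the other line, Vav:cre-PHD2/HIF2ff/ff (group P2H2KO), PHD2 and HIF2α, encoded by Epas1, are labelled as deficient together. Each line has its own controls, labelled wild type (groups P2WT and P2H2WT), and each of the 4 groups holds 4 libraries. Vav:cre is a recombinase expressed in blood-forming cells, so the deletions are not limited to neutrophils in these mice. The labels do not say whether the control mice carry the recombinase or the floxed alleles, and they do not give the sort gates.

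Collagen chains are modified inside the endoplasmic reticulum before they fold into a triple helix. Prolyl 4-hydroxylase, a tetramer of catalytic α subunits (P4ha1, P4ha2) and the β subunit protein disulfide isomerase (P4hb), makes the 4-hydroxyproline that keeps the helix stable. The lysyl hydroxylases (Plod1, Plod2, Plod3) prepare lysines for sugar attachment and cross-links, and P3h1 hydroxylates proline at its other position. These enzymes need oxygen, iron and 2-oxoglutarate, like the PHD enzymes. PHD2 hydroxylates the α subunits of the transcription factors HIF1 and HIF2, which leads to their destruction, and P4ha1, P4ha2 and Plod2 are known as hypoxia-inducible genes in other cell types. Mature neutrophils are not known as a main source of collagen.

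Each library held between 23450746 and 28601284 counts, of which the members together took 0.0671% to 0.0946%. The neutrophil markers S100a8 (5245 to 14637 CPM, the count relative to the TMM-scaled library size, computed here), S100a9 (7761 to 21366 CPM) and Ly6g (84.3 to 270 CPM) were present in every library. Markers of other cells were also present: the 11 erythroid markers summed to between 27068 and 55167 CPM, against 15505 to 43550 CPM for the 9 neutrophil markers. Whole-gene counts of Egln1 did not differ between the genotypes (log2 fold change 0.04 in the P2 line and 0.03 in the P2H2 line) and do not check the labels, because the deleted exons cannot be separated in such counts. Those of Epas1 were 3.42 to 8.39 CPM in P2H2KO, labelled as deficient in HIF2α, and 2.55 to 4.97 CPM in P2H2WT, so that the labelled deficiency is not seen as a lower whole-gene count. The Epas1 difference was 0.66 (SE 0.29), with an adjusted p of 0.9999 in edgeR's quasi-likelihood test, and P2WT was above P2H2WT by 1.49 (SE 0.38, adjusted p = 0.106). In bulk libraries, fewer cells of a type and less RNA per cell cannot be told apart. The labels do not say that each library came from a separate mouse, so p-values measure the spread between these libraries.

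P4ha1, the α subunit, was the 1 member called between deficient and control libraries, in the P2H2 line and over both lines together. Its transcript was higher in both groups labelled as deficient in PHD2, by 1.63-fold in the P2 line and by 1.95-fold in the P2H2 line, and no deficient library fell within the range of its controls. The other subunit of the same enzyme, P4hb, and the 3 lysyl hydroxylases passed no test between deficient and control libraries. P4ha1 (ENSMUSG00000019916) lies on chromosome 10, 59323296 to 59373304, plus strand (all positions are GRCm38, GENCODE M21), and encodes the catalytic subunit that carries the iron centre. The 250 bases upstream of its start are shown because it was the called member, beside those of P4hb and Plod3, the most abundant members, which passed no test. Capitals mark ACGTG or GCGTG, the core letters bound by hypoxia-inducible factors, on either strand, so that CACGT and CACGC are matches on the reverse strand. The sequences are from RefSeq on GRCm38.p6, written 5′ to 3′ on the strand of the gene (chr10:59323046-59323295, plus, chr11:120573254-120573503, minus, and chr5:136986769-136987018, plus).
P4ha1: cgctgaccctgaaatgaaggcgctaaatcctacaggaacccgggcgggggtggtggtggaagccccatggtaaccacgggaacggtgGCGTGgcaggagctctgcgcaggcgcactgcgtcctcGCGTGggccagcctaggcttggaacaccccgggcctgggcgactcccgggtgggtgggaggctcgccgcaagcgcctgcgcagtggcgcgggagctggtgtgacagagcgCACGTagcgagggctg
P4hb: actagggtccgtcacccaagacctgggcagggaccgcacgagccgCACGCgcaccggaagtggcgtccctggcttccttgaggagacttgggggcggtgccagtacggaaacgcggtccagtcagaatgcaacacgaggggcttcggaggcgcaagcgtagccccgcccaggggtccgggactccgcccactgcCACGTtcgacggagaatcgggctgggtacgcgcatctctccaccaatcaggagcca
Plod3: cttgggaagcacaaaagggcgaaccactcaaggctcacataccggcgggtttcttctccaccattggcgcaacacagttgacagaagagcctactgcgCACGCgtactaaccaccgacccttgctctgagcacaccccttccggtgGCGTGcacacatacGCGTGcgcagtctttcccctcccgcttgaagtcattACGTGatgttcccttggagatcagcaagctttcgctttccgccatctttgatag
The P4ha1 window held 3 matches, the first at 163 to 159 and the nearest at 16 to 12 bases upstream of the start. Windows of P4hb and Plod3 held 2 and 4. Of the 32851 RefSeq windows of this length, 38.6% held at least 1 match and 6.58% at least 3, and of the 13177 windows of genes tested over all libraries 54.1% and 11.2%. Of the members with an entry, Plod1 had 1 match, P4ha2 had 3, P3h1 had 2 in each of its windows, and P4htm had 0. The number of matches did not separate P4ha1 from members that were not called, and a match is a run of letters only.

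In the P2 line, P4ha1 stood at 52.6, 54.7, 53.4 and 43.9 CPM in the P2KO libraries. The P2WT libraries stood at 27.0, 32.9, 33.2 and 33.5 CPM. The lowest deficient library was therefore above the highest control, and means were 51.1 ± 4.91 against 31.6 ± 3.08 CPM (SD, n = 4 each). The log2 fold change was 0.70 (SE 0.09, 95% interval 0.49 to 0.92), and the adjusted p was 0.0684 in edgeR's quasi-likelihood test with Benjamini-Hochberg adjustment over 13734 genes. In the same comparison 6 genes, or 0.0437%, had an adjusted p under 0.05, and P4ha1 had the seventh smallest p. Groups that did not overlap, with the deficient one higher, were found for 0.859% of the genes tested. The call depended on the fit: adjusted p was 0.0121 when all 16 libraries shared one estimate of spread, 1.4e-06 with DESeq2 and 0.00634 without a filter on low counts. In edgeR's test it was 0.0871 with RLE scaling, 0.0807 with upper-quartile scaling and 0.0861 with the title suffix as a covariate. With at least 10 counts in every library it was 0.0607. Early granule, bone stroma and macrophage scores as covariates gave 0.101, 0.231 and 0.92. With 1 library left out it was 0.0334 without P2KO 9 and 0.0958 to 0.279 without any other.

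In the P2H2 line, the P2H2KO libraries stood at 53.8, 57.9, 69.5 and 55.1 CPM for P4ha1. Their controls stood at 26.4, 30.3, 33.2 and 31.6 CPM. Again every deficient library was above every control, with means of 59.1 ± 7.14 and 30.4 ± 2.87 CPM (SD, n = 4 each). P4ha1 rose by 0.96 on the log2 scale (SE 0.10, 95% interval 0.73 to 1.19), with an adjusted p of 0.0092 in edgeR's quasi-likelihood test with Benjamini-Hochberg adjustment over 13435 genes. Of those genes 10 were called (0.0744%), and 0.901% had groups that did not overlap with the deficient one higher. Without P2H2WT 13, 14 or 18 the adjusted p was 0.0534, 0.0506 or 0.0516.

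**Figure D1:**
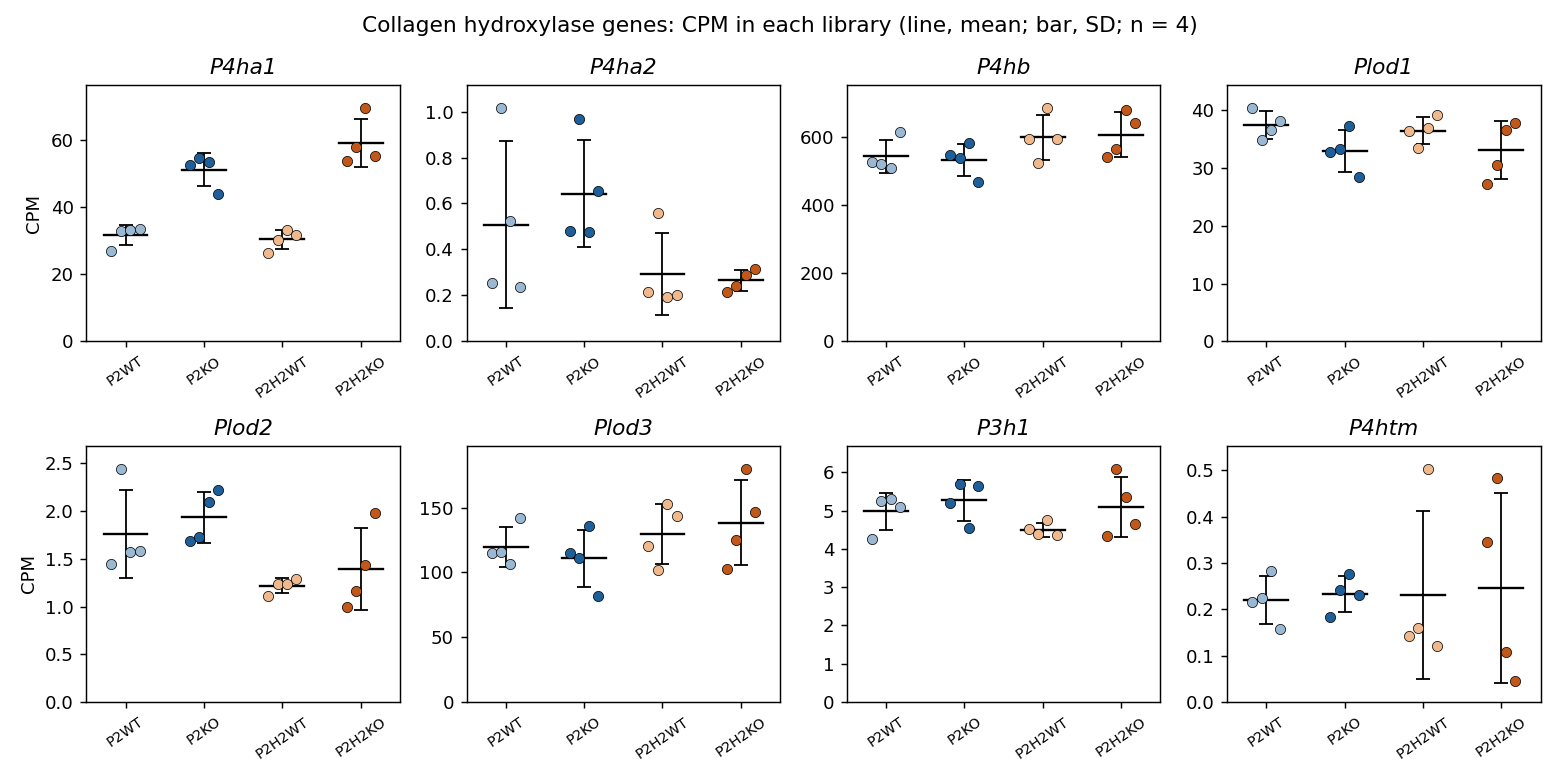
CPM of each member (vertical axes, from 0) in every library of the 4 groups (points), with the group mean and SD (bars, n = 4). For P4ha1 the deficient libraries sit between 43.9 and 69.5 CPM and the controls between 26.4 and 33.5 CPM, whereas the groups of each line overlap for the other members.

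Averaged over both lines, P4ha1 rose by 0.83 on the log2 scale (SE 0.07, 95% interval 0.67 to 0.98), a 1.77-fold difference. Its adjusted p was 1.6e-05 in edgeR's quasi-likelihood test with Benjamini-Hochberg adjustment over 14080 genes, of which 0.17% were called. This call held in each of the 16 fits that left out 1 library, with values from 0.78 to 0.87. The increase was not shown to differ between the lines: the effect in the P2 line minus that in the P2H2 line was -0.27 (SE 0.14, 95% interval -0.57 to 0.04, adjusted p = 0.999 in edgeR's quasi-likelihood test). In that contrast 0 of 14080 genes (0%) were called by edgeR or by DESeq2, and 212 (1.51%) had an unadjusted p under 0.05. Control libraries of the lines had similar levels, with P2WT minus P2H2WT at 0.06 (95% interval -0.16 to 0.28).

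Marker levels of other cell types and states were set beside this result. For monocytes and macrophages, the mean log2 CPM of 12 genes was 6.04 to 6.36 in P2KO and 6.37 to 6.62 in P2WT, and 6.03 to 6.33 in P2H2KO and 6.33 to 6.52 in P2H2WT. In edgeR none of the 12 genes was called in either line, and 4 in the P2 line and 7 in the P2H2 line had an unadjusted p under 0.05, all lower in the deficient group. They were lower in the deficient group for 12 of 12 in the P2 line and 9 of 12 in the P2H2 line. DESeq2 called 0 of them in either line. Averaged over both lines, 11 of 12 were lower, and 7 had an unadjusted p under 0.05 in edgeR, all lower. In that contrast edgeR called 0 of the 12 and DESeq2 called 1, lower. With that score as a covariate, the P4ha1 difference was 0.43 (adjusted p = 0.92) in the P2 line, 1.04 (adjusted p = 0.368) in the P2H2 line and 0.72 (adjusted p = 0.039) over both lines in edgeR's test. In the P2 line the ranges of this score do not overlap between the genotypes, so there the 2 cannot be told apart. In the P2H2 line the ranges meet only at P2H2KO 17 (6.332) and P2H2WT 13 (6.327), so score and genotype are hardly separated there either. With the score of the 6 early granule genes as a covariate, the P2H2 difference was 0.93 (adjusted p = 0.102), and these genes were higher in P2H2KO for 6 of 6, with a median of 0.19 and none called. The neutrophil markers (9 of 9, median 0.21) and late granule genes (8 of 8, median 0.18) were also higher in P2H2KO, and edgeR and DESeq2 called 0 of them, with 1 and 0 at an unadjusted p under 0.05 in edgeR. Markers of T and NK cells were lower in P2KO for 8 of 8, with a median of -0.27. Of these edgeR called 0, with 2 at an unadjusted p under 0.05, and DESeq2 called Klrb1c and Gzma, at -0.75 and -0.78 in edgeR. In P2H2KO 5 of these 8 were lower, with a median of -0.06. Endothelial markers were higher in the deficient group for 7 of 8 in the P2 line (median 0.38) and 6 of 8 in the P2H2 line (median 0.44). Of these, 1 in the P2 line and 2 in the P2H2 line had an unadjusted p under 0.05 in edgeR, all higher. Erythroid markers were higher in P2KO for 11 of 11 (median 0.13) and lower in P2H2KO for 11 of 11 (median -0.18). B lineage markers were higher in P2KO for 6 of 9 (median 0.01) and lower in P2H2KO for 9 of 9 (median -0.37). Neither edgeR nor DESeq2 called any endothelial, erythroid or B lineage marker between genotypes in either line. The part of the neutrophil, late granule, T and NK, endothelial, erythroid and B lineage lists in the P4ha1 difference was not tested.

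P4ha2, the alternative α subunit (ENSMUSG00000018906, chromosome 11, 54100095 to 54131665, plus strand), was represented by 5 to 28 counts per library. It passed the filter on low counts in the P2 line and over all libraries, not in the P2H2 line. The P2KO libraries stood at 0.478, 0.967, 0.474 and 0.653 CPM and the P2WT libraries at 0.252, 1.01, 0.526 and 0.237 CPM, which overlap. The P2H2KO libraries stood at 0.216, 0.242, 0.287 and 0.316 CPM and their controls at 0.215, 0.558, 0.193 and 0.202 CPM, also with overlap. In the P2 line the log2 fold change was 0.36 with a 95% interval of -0.71 to 1.43, so neither a fall nor a rise was detectable at this depth. Per kilobase of exon, P4ha1 made up between 98.97% ± 0.688 (P2WT) and 99.7% ± 0.0532 (P2H2KO) of the α subunit transcripts (SD, n = 4 each).

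P4hb (ENSMUSG00000025130, chromosome 11, 120560298 to 120573253, minus strand) encodes protein disulfide isomerase, which also folds proteins on its own. It was the most abundant member. P2KO libraries stood at 545, 536, 581 and 468 CPM, and P2WT libraries at 526, 521, 508 and 613 CPM. P2H2KO libraries stood at 540, 564, 679 and 640 CPM, against 593, 522, 683 and 594 CPM in P2H2WT. The groups overlapped in both lines, and the log2 fold changes were -0.01 (95% interval -0.23 to 0.20) and 0.02 (95% interval -0.23 to 0.27). Each interval excludes a change of the size of that of P4ha1 in its line.

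The transcripts of the β and α subunits therefore stood in another proportion in deficient libraries. Per kilobase of exon, P4hb was 24.5 ± 2.92 times P4ha1 and P4ha2 together in P2WT and 28.2 ± 3.28 times in P2H2WT (SD, n = 4 each). The ratio was 14.9 ± 0.694 in P2KO and 14.8 ± 1.27 in P2H2KO. Control libraries ranged from 21.8 to 32.1 and deficient libraries from 13.9 to 16.6, without overlap. The ratio was set up with the P4ha1 result known and is given as a description, with no test.

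**Figure D2:**
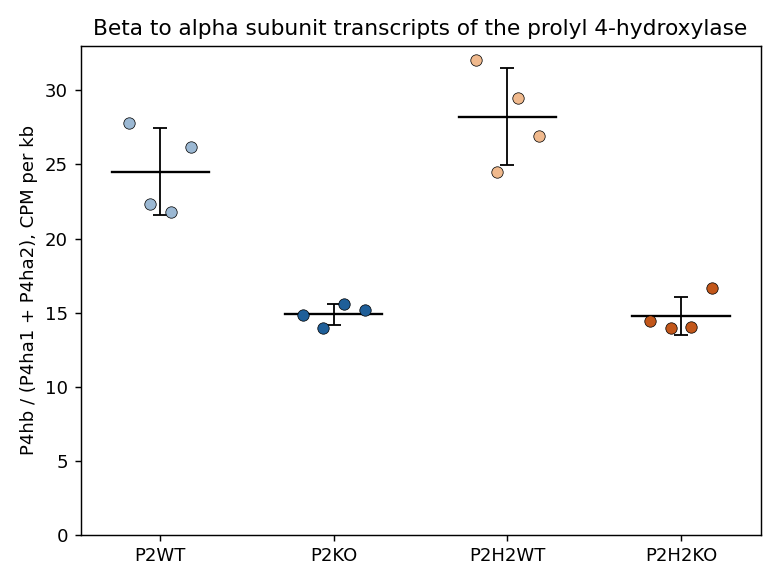
Ratio of P4hb to the sum of P4ha1 and P4ha2, each in CPM per kilobase of exon (vertical axis, from 0), in every library (points) with group mean and SD (bars, n = 4). Deficient libraries lie between 13.9 and 16.6 and control libraries between 21.8 and 32.1.

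Lysyl hydroxylase 1, encoded by Plod1 (ENSMUSG00000019055, chromosome 4, 147909753 to 147936767, minus strand), acts mainly on the helical part of collagen. The P2KO libraries stood at 32.8, 33.2, 37.3 and 28.5 CPM and the P2WT libraries at 40.3, 34.8, 36.6 and 38.1 CPM. The P2H2KO libraries stood at 27.3, 30.5, 36.6 and 37.8 CPM and the P2H2WT libraries at 36.4, 33.4, 36.9 and 39.2 CPM. The groups overlapped in both lines. The log2 fold changes were -0.17 (95% interval -0.38 to 0.03) and -0.14 (95% interval -0.39 to 0.10), and their mean was -0.16 (95% interval -0.32 to -0.01). That mean had an unadjusted p of 0.0392 and an adjusted p of 0.9998 in edgeR's quasi-likelihood test, and 1.83% of all genes had an unadjusted p under 0.05 with a lower value.

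Plod2 (ENSMUSG00000032374, chromosome 9, 92542223 to 92608428, plus strand) encodes the lysyl hydroxylase of the collagen telopeptides and was found at 23 to 65 counts per library. The P2KO libraries stood at 1.69, 1.73, 2.09 and 2.23 CPM and the P2WT libraries at 1.44, 2.44, 1.58 and 1.58 CPM. The P2H2KO libraries stood at 0.995, 1.17, 1.44 and 1.98 CPM and the P2H2WT libraries at 1.11, 1.24, 1.24 and 1.29 CPM. Genotypes overlapped in both lines, with log2 fold changes of 0.15 (95% interval -0.32 to 0.61) and 0.19 (95% interval -0.32 to 0.71), and neither was called. Each interval excludes the P4ha1 value of its own line, 0.70 in the P2 line and 0.96 in the P2H2 line. In the P2 line the Plod2 interval overlaps that of P4ha1, 0.49 to 0.92.

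Plod2 was the member that differed most between the controls of the lines by p. Every P2WT library was above every P2H2WT library, a pattern in the same direction as 5.18% of all genes tested. The log2 difference was 0.53 (SE 0.22, 95% interval 0.07 to 0.99), with an unadjusted p of 0.0278 and an adjusted p of 0.403 in edgeR's quasi-likelihood test, where 0.227% of genes were called and 6.94% had an unadjusted p under 0.05 with the higher value in P2WT. Without P2WT 3 the difference was 0.32. Bone stroma markers, 16 genes of bone-forming and marrow support cells, differed between the lines in the same direction: they summed to 572 to 1477 CPM in P2WT and 667 to 1269 CPM in P2KO, against 230 to 402 CPM in P2H2WT and 232 to 338 CPM in P2H2KO. With their score as a covariate the Plod2 difference was -0.12. Endothelial markers differed in the same direction, 8 of 8 higher in P2WT with a median of 1.17 and sums of 75.8 to 92.8 CPM against 64.6 to 66.6 CPM in P2H2WT. Of these edgeR called 0, with 5 at an unadjusted p under 0.05, and DESeq2 called 5. Line, count table and both sets of markers cannot be told apart.

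**Figure D3:**
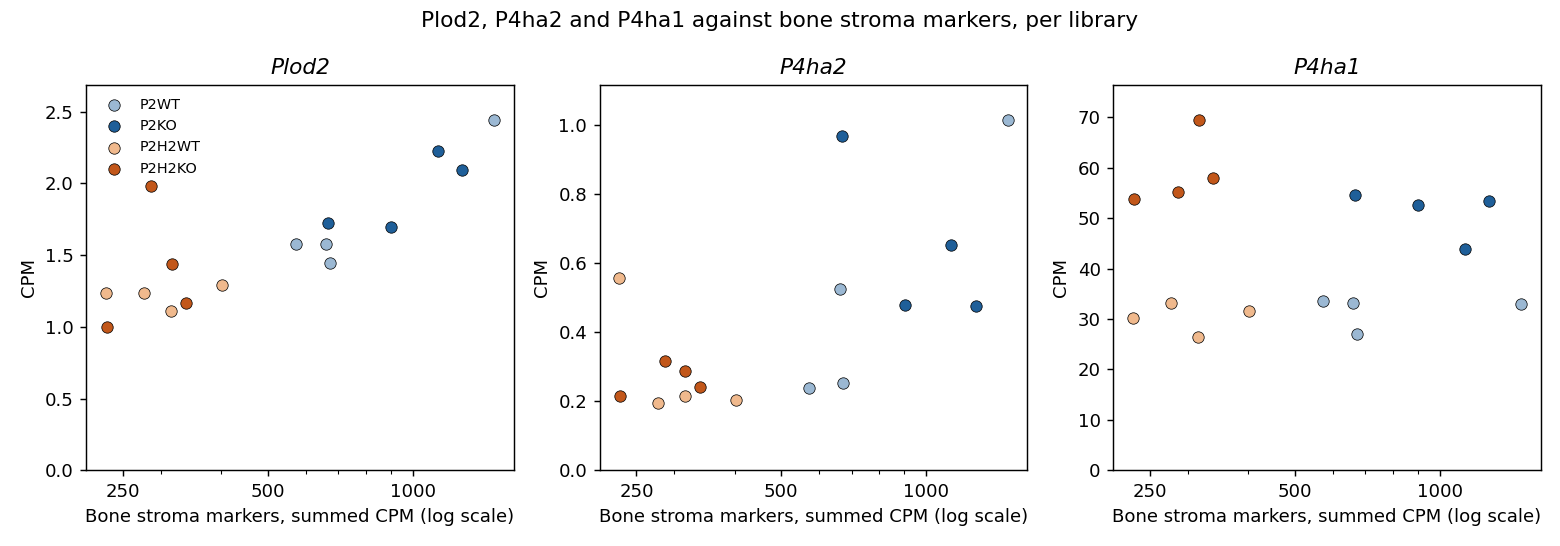
CPM of Plod2, P4ha2 and P4ha1 (vertical axes, from 0) against the summed CPM of 16 bone stroma markers (horizontal log axes), 1 point per library, coloured by group. Libraries of the P2 line lie at 572 to 1477 CPM of stroma markers and those of the P2H2 line at 230 to 402 CPM. The deficient libraries have the higher P4ha1 values at both ends of the axis.

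Plod3 (ENSMUSG00000004846, chromosome 5, 136987019 to 136996648, plus strand) encodes the multifunctional lysyl hydroxylase that also transfers sugars. The P2KO libraries stood at 115, 111, 136 and 82.1 CPM and the P2WT libraries at 115, 116, 106 and 142 CPM. The P2H2KO libraries stood at 102, 125, 180 and 147 CPM and the P2H2WT libraries at 120, 102, 153 and 144 CPM. The spread within groups covered the difference in both lines, with log2 fold changes of -0.10 (95% interval -0.44 to 0.24) and 0.09 (95% interval -0.31 to 0.50). Plod3 made up 79.7% to 87.5% of lysyl hydroxylase transcripts per kilobase. Its exons overlap those of Znhit1 on the opposite strand over 529 bases, 11.7% of its exon length, and Znhit1 had 16400 counts over all libraries against 51562 for Plod3. Without knowledge of strand, reads from that stretch cannot be assigned to either gene.

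P3h1 (ENSMUSG00000028641, chromosome 4, 119232915 to 119248975, plus strand) encodes prolyl 3-hydroxylase, which works in a complex with Crtap and the prolyl isomerase Ppib. It stood at 5.19, 5.70, 4.55 and 5.64 CPM in P2KO and 4.25, 5.26, 5.30 and 5.10 CPM in P2WT. In the other line it stood at 4.33, 6.08, 5.35 and 4.65 CPM in P2H2KO and 4.51, 4.38, 4.76 and 4.36 CPM in P2H2WT. The groups overlapped, and the log2 fold changes were 0.09 (95% interval -0.17 to 0.36) and 0.18 (95% interval -0.12 to 0.48). Crtap (9.96 CPM) and Ppib (197 CPM) had log2 fold changes from -0.04 to 0.08 in the 2 lines, and neither was called.

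P4htm (ENSMUSG00000006675, chromosome 9, 108578862 to 108597667, minus strand) encodes a transmembrane prolyl 4-hydroxylase of the endoplasmic reticulum that is reported to act on HIF α subunits rather than on collagen. It had 1 to 13 counts per library, between 0.0451 and 0.503 CPM, and was under the filter in every comparison. Fitted without a filter, P4htm differed by 0.08 on the log2 scale (SE 0.40) in the P2 line and by 0.07 (SE 0.64) in the P2H2 line, with adjusted p of 0.998 and 0.995 in edgeR's quasi-likelihood test.

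**Figure D4:**
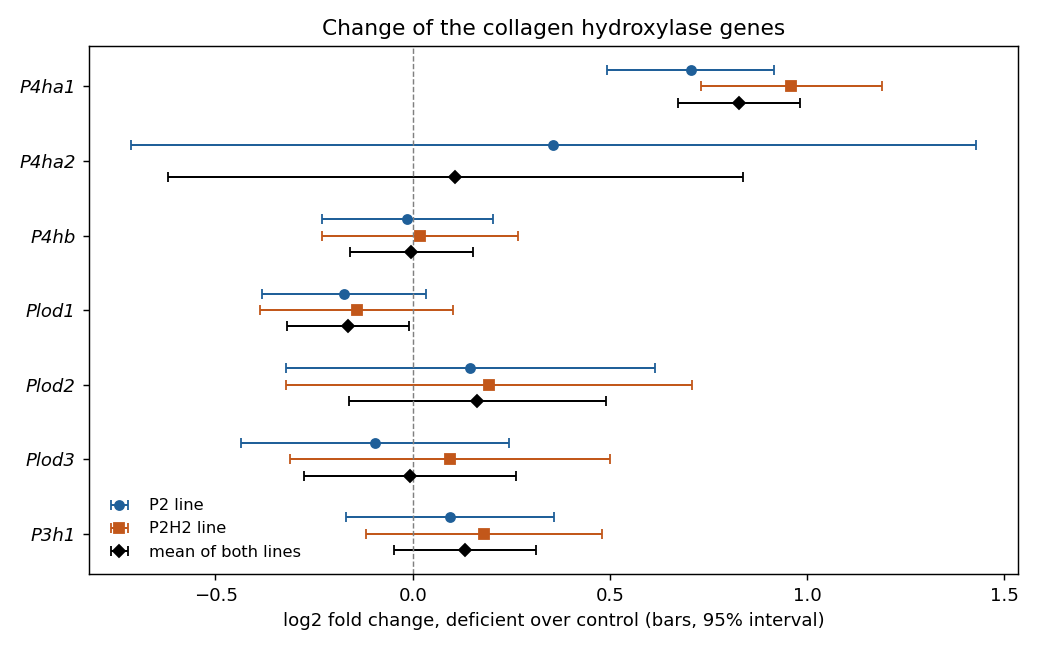
Log2 fold change of the tested members (horizontal axis) in each line and averaged over both lines (mean of the 2 effects), with 95% intervals (bars). P4ha1 lies at 0.70, 0.96 and 0.83, and the intervals of the other members include 0 except that of the mean for Plod1 (-0.32 to -0.01, adjusted p = 0.9998).

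As a group, the members were read beside all genes tested. In the P2 line 7 were tested, of which 4 were higher and 0 were called by edgeR, with a median log2 fold change of 0.09 against 0.02 for all genes, of which 57.8% were higher. DESeq2 called 1 member, P4ha1, higher (0.0947% of all genes were), and 1 member had an unadjusted p under 0.05 (3.49% of all genes did). In the P2H2 line 6 were tested, 5 were higher and 1 was called, with a median of 0.14 against 0.00 for all genes, of which 50.5% were higher. The 1 called member, also by DESeq2 (0.246% of all genes higher), had the one unadjusted p under 0.05 (2.63% of all genes). Averaged over both lines the median of the 7 tested members was 0.11 and 4 were higher, as were 51.9% of all genes. In the difference of the effects 1 of 7 was above 0, as were 50.4% of all genes, and 0 were called by edgeR or DESeq2.

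Levels differed more between members than between groups. Per kilobase of merged exons, averaged over 16 libraries, the order was P4hb at 199 CPM per kb, Plod3 at 27.6, P4ha1 at 10.5, Plod1 at 5.17, P3h1 at 1.29, Plod2 at 0.293, P4ha2 at 0.0684 and P4htm at 0.0598. The ranges over libraries did not overlap between neighbours in this order, except for P4ha2 and P4htm. With the length of the longest transcript the means over all libraries kept this order, but the ranges of P4ha1 (6.54 to 17.2) and Plod1 (6.66 to 9.85) overlapped, as did those of Plod2 and P4ha2. By that length Plod1 was above P4ha1 in the controls, at 9.14 against 7.83 CPM per kb in P2WT and 8.90 against 7.51 in P2H2WT. P4hb took 73.1% of the summed CPM of the members.

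**Figure D5:**
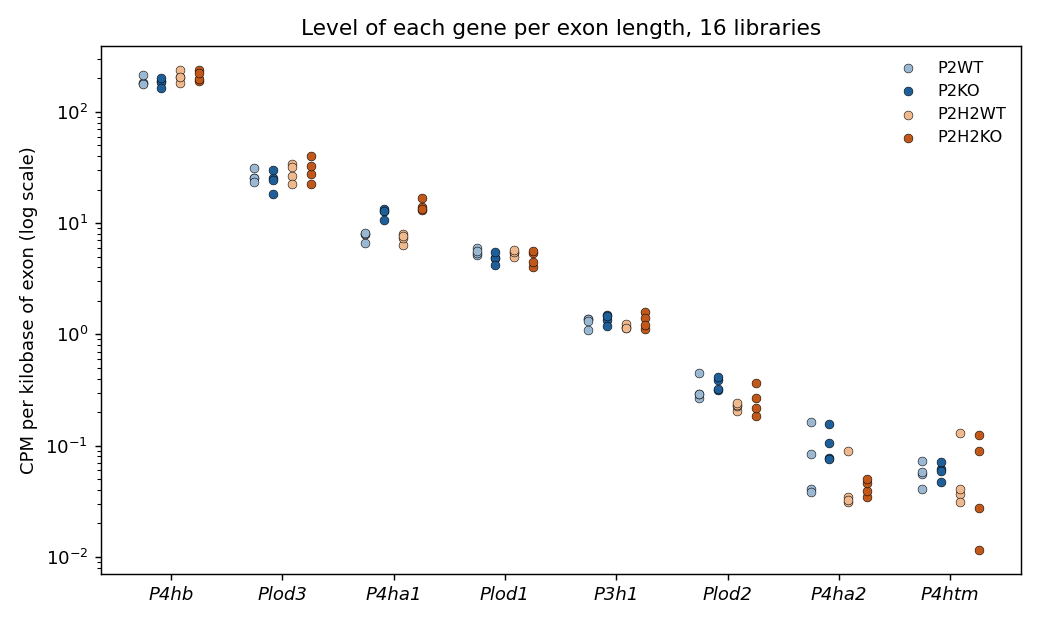
CPM per kilobase of exon (vertical log axis) of each member in every library, coloured by group, in order of mean level. The order runs from P4hb at 199 to P4htm at 0.0598 CPM per kb, and P4ha2 and P4htm overlap.

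The remaining genes of the collagen pathway were read from a list chosen for their roles. Of 23 partners that modify, fold, trim or cross-link collagen, 20 were tested in the P2 line, with 13 higher and 7 lower and a median of 0.10. In the P2H2 line 18 were tested, with 9 higher and 9 lower and a median of 0.01. Neither edgeR nor DESeq2 called any, and 2 in the P2 line and 1 in the P2H2 line had an unadjusted p under 0.05. Ppib and Colgalt1, which attaches galactose to hydroxylysine (103 CPM), were the partners with the highest level, and Colgalt1 had log2 fold changes of -0.20 and -0.08. The 14 collagen chains had medians of 0.37 in the P2 line (13 of 14 higher) and 0.21 in the P2H2 line (7 of 12 higher). Neither tool called any, and 1 and 0 had an unadjusted p under 0.05. The most abundant chains, Col1a1 (169 CPM) and Col1a2 (138 CPM), had log2 fold changes of 0.26 and 0.23 in the P2 line and of -0.62 and -0.48 in the P2H2 line.

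Between control libraries, the same lists differed more. In P2WT against P2H2WT, 17 of 20 partners were higher with a median of 0.89, against -0.01 for all genes, and edgeR called 2: Serpinh1, the collagen chaperone, at 1.17 (adjusted p = 0.04) and Sparc, a collagen-binding matrix protein, at 1.75 (adjusted p = 0.0421). All 14 chains were higher with a median of 1.69, and Col4a1, Col4a2 and Col5a2 were called. DESeq2 called 7 partners and 11 chains, all higher in P2WT. Over all genes in this contrast edgeR called 32 of 14080 (0.227%) and DESeq2 called 291. The edgeR calls changed with the libraries included. Over all genes edgeR called 0 without P2WT 3, P2WT 4, P2WT 7 or P2H2WT 13, 1 without P2WT 10 or P2H2WT 16, and 182 without P2KO 9. DESeq2 was not run with libraries left out. Sparc, Col1a1, Col1a2 and Col3a1 are also in the bone stroma list. Of the members, 5 of 7 were higher in P2WT, as were 48.3% of all genes, with a median of 0.06, and 0 were called by edgeR or DESeq2.

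Endoplasmic reticulum genes that fold and oxidise proteins beside P4hb showed no called difference. All 22 were tested in both lines, with medians of 0.00 in the P2 line and -0.05 in the P2H2 line. In edgeR 0 had an adjusted or an unadjusted p under 0.05 in either line, and DESeq2 called 0. The most abundant were the chaperones Calr (864 CPM) and Hspa5 (727 CPM). Ero1l, the oxidase that recharges protein disulfide isomerase, had log2 fold changes of 0.17 (SE 0.15) and 0.21 (SE 0.11).

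Known HIF target genes outside the collagen pathway give a scale for P4ha1. Of 17, chosen with results of these libraries known, 17 were higher in the P2 line (median 0.50, 4 called by edgeR) and 16 in the P2H2 line (median 0.66, 7 called by edgeR). DESeq2 called 7 in the P2 line and 11 in the P2H2 line, all higher, as were 0.0947% and 0.246% of all genes. P4ha1, at 0.70 and 0.96, was near Pfkl, a phosphofructokinase (0.75 and 0.92), and Tpi1, triosephosphate isomerase (0.70 and 0.83). Larger values were found for Ankrd37, an ankyrin repeat gene (2.73 and 2.70), Aldoc, an aldolase (1.52 and 1.80), Bnip3, a mitophagy receptor (0.96 and 1.21), and Egln3, the PHD3 oxygen sensor (0.75 and 1.08), of which edgeR called Ankrd37 and Aldoc in both lines and Bnip3 and Egln3 in the P2H2 line. The most abundant of the list, the glycolytic genes Ldha (472 CPM) and Eno1 (424 CPM), had smaller values of 0.35 and 0.46, and of 0.50 and 0.66. Neither was called by edgeR in either line, whereas DESeq2 called both in the P2H2 line and neither in the P2 line. In the difference of the effects 14 of 17 were below 0 with a median of -0.17, and 0 were called by edgeR or DESeq2.

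The genes whose pattern over the 16 libraries was most like that of P4ha1, after centring each line on its mean, were Pfkl (Pearson r 0.98), Tpi1 (0.97), the predicted gene Gm6472 (0.93), Egln3 (0.92) and Bnip3 (0.91), among 9817 genes. The difference between genotypes contributes to these values. For the other members the closest gene was Tagln2 for P4hb (0.97), Adap1 for Plod3 (0.99), H2-T23 for Plod1 (0.92), Rfxank for Plod2 (0.81) and Lrrc45 for P3h1 (0.75). The closest to P4ha2 was Gimap9 (0.79) and to P4htm Txlna (0.76), both over very few counts of the member.

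Within groups, the members were set against scores of other cell types and states. Deviations from the group mean of P4hb and of the early granule score had Pearson's r of 0.71 and Spearman's rho of 0.77 over 16 libraries (permutation p = 0.00861 and 0.00373, adjusted over 24 relations 0.207 and 0.0895). Without the 2 libraries farthest from the median score r was 0.62, and r was 0.55 in the P2 line and 0.83 in the P2H2 line. For Plod2 and the bone stroma score, r was 0.65 and rho 0.60 (permutation p = 0.0197 and 0.028, adjusted 0.236 and 0.336). That r was 0.45 without P2KO 9 and P2WT 3, 0.91 in the P2 line and 0.39 in the P2H2 line. For P4ha1 and the monocyte and macrophage score, r was -0.31 and rho -0.20 (permutation p = 0.288 and 0.512, adjusted 0.793 and 0.965). There r was -0.87 in the P2 line and 0.26 in the P2H2 line. None of the 24 relations passed after adjustment.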

How the data were processed

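Gene expression was measured by RNA sequencing in 16 libraries. The authors deposited 2 tables of raw counts per gene, 1 for each line with 8 libraries, per the file headers. HTSeq and the build mm10 are named in the submitters' processing notes, with no role or version. The aligner, annotation and use of strand are not given in the sources used here. Symbols, exon lengths and coordinates came from GENCODE M21 on GRCm38, which matched 49326 of 49585 identifiers. Groups came from the library titles. The 24 pairs of replicates within groups differed by more than sampling noise (lowest chi-square per degree of freedom 10.6).

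Counts were filtered with filterByExpr, scaled with TMM and tested with glmQLFit (robust) and glmQLFTest of edgeR 4.0.16 in R 4.3.3, two-sided, with Benjamini-Hochberg adjustment over all genes tested and a threshold of 0.05. Each line was fitted on its own 8 libraries, and the mean and difference of the effects and the controls of the lines on all 16. Intervals are for 1 gene, unadjusted. CPM values use the 16-library scaling. Levels between genes are CPM per kilobase of merged exons. Scores are mean log2 CPM of list genes with a mean of at least 1 CPM (prior count 2), computed here from the deposited counts. Relations used 100000 seeded permutations within groups (numpy 2.4.6, scipy 1.17.1). The edgeR tests of each line and of the difference of the effects were tried on simulated counts. Those of the mean of the effects and of the controls were not. Precision is limited for P4ha2 and P4htm, at 1 to 28 counts per library.

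Alternatives were DESeq2 1.42.0, RLE or upper-quartile scaling, testing all genes or those with 10 or more counts per library throughout, the m or f suffix of the titles as a covariate, 1 fit of all libraries, each library left out, and 3 cell-type scores as covariates, the last chosen after seeing the data. The members and gene lists were chosen with earlier results of these data known. By rule, named genes were the members, up to 5 called genes (smallest p) of each list in a comparison and its 2 most abundant, S100a8, S100a9, Ly6g, Egln1, Epas1 and the genes most like each member. For marker lists only counts, sums and scores are given. Genes named outside this rule (Crtap, Ero1l, Klrb1c and Gzma) were chosen after their values were seen. The promoter entries matched 7 of the 8 members.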

Additional observations from a re-analysis of the deposited data

Results flagged for a closer look

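Within-group outliers were sought for each member in each of the 4 groups, 32 groups of 4 libraries in all, with Dixon's test at its 95% critical value, which chance passes in about 1 of 20 groups. Of these, 5 values passed. P4ha1 was lowest in P2WT 10, at 27.0 CPM, with the other 3 P2WT libraries at 32.9 to 33.5 CPM. P4hb was highest in P2WT 7, at 613 CPM, with the others at 508 to 526 CPM. Plod2 was highest in P2WT 3, at 2.44 CPM, and that library also had the highest sum of bone stroma markers, 1477 CPM. P4ha2 was highest in P2H2WT 14, at 0.558 CPM, and P4htm in P2H2WT 16, at 0.503 CPM, and both rest on 14 or fewer counts.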

How the results depend on the processing

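No paired analysis was possible because no replicate number is shared between groups. The mean P4ha1 effect was called under all 9 alternatives (0.72 to 0.83) and without any 1 library. Its P2 call appeared without a filter, with DESeq2, in 1 fit of all libraries (members called 1 in each, against 0) and without P2KO 9 (0.77, adjusted p 0.0334). Its P2H2 call was lost with the early granule or macrophage covariate (members called 0, against 1) and without P2H2WT 13, 14 or 18. Leaving out 1 library gave 0 to 1 members called in each line.

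Genes called in the P2 line (6) were 23 with DESeq2, 10 in 1 fit of all libraries, 2 with the macrophage covariate and 4 to 6 with 1 library left out. In the P2H2 line (10) they were 42 with DESeq2, 6 with the early granule covariate, 2 with the macrophage covariate and 6 (without P2H2WT 13) to 9 with 1 library left out. For the mean effect (24) they were 65 with DESeq2, 10 with the macrophage covariate and 15 (without P2WT 4) to 30. Between the controls (32) they were 291 with DESeq2, 124 with the suffix, 111 with the early granule covariate, 9 without a filter, 0 with at least 10 counts, 0 with the bone stroma covariate, and with 1 library left out 0 (without P2WT 3, 4 or 7 or P2H2WT 13), 1 (without P2WT 10 or P2H2WT 16), 12 (P2KO 5), 13 (P2H2KO 12), 15 (P2H2WT 14) and up to 182 (P2KO 9).

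Signs turned for values that were not called, P4ha1 between the controls among them. With the suffix, the P2H2 values of P4hb and Plod3 were -0.046 and -0.030, and the differences of P4hb, Plod1 and Plod2 were 0.026, 0.013 and 0.0018. With the early granule covariate, P4hb was 0.016 (P2) and -0.11 (P2H2), Plod3 -0.082 (P2H2), and the differences of P4hb, Plod1 and Plod3 were 0.10, 0.026 and 0.011. With the bone stroma covariate, P4hb was 0.048 and Plod2 -0.025 (P2), the P4hb mean was 0.0053, and P4ha2, Plod2 and P3h1 between controls were -0.12, -0.12 and -0.063. With the macrophage covariate, P4ha2 was -0.095 and Plod2 -0.032 (P2) and Plod1 0.11 (P2H2).

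Leaving out 1 library gave these ranges across 0. P4hb ran from -0.058 to 0.048 and Plod3 from -0.21 to 0.021 in the P2 line. P4hb ran from -0.044 to 0.090, Plod2 from -0.014 to 0.32 and Plod3 from -0.054 to 0.21 in the P2H2 line. In the difference, P4ha2 ran from -0.029 to 1.04, P4hb from -0.11 to 0.017, Plod1 from -0.12 to 0.019 and Plod2 from -0.19 to 0.14. In the mean, P4ha2 ran from -0.022 to 0.40, P4hb from -0.033 to 0.032 and Plod3 from -0.083 to 0.060. Between controls, P4ha1 ran from -0.0032 to 0.13 and Plod1 from -0.0031 to 0.073. The cause was not tested. P4ha2, P4htm and Plod2 are limited by counts of 1 to 65 per library.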

Other observations

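Library titles end in m or f, and 2 of the 6 members tested in the P2H2 line were separated by that suffix. The f libraries were P2KO 9, P2WT 7 and 10, P2H2KO 15 and 17, and P2H2WT 16. The suffix was therefore not balanced between genotypes, with more f libraries among the controls in the P2 line and fewer in the P2H2 line. For the P2H2 mice P4hb was 640 to 683 CPM in the 3 libraries with suffix f and 522 to 594 CPM in the 5 with suffix m, and Plod3 was 147 to 180 CPM against 102 to 144 CPM. In the P2 line P4hb was 468 to 613 CPM in the 3 f libraries and 508 to 581 CPM in the 5 m libraries, and Plod3 was 82.1 to 142 CPM against 106 to 136 CPM, so both overlapped. Over all genes tested, 6.43% were higher in every f library than in every m library of the P2H2 line and 9.16% were lower, against 2.66% and 1.59% in the P2 line. The pattern was noticed in the data and was not tested. With the suffix as a covariate, the P4ha1 mean effect stayed called.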
